A study of Homo sapiens with 14 samples.

Results

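Ribosome biogenesis factors are the proteins that transcribe, cut, modify and fold ribosomal RNA and assemble it with ribosomal proteins, mostly in the nucleolus. The list described here held 48 of them, and 37 had at least 1 probe set annotated with exactly 1 gene, out of 11963 genes with such a probe set. Transcripts were measured in RS4;11, a human B-cell precursor acute lymphoblastic leukemia line with a rearranged KMT2A gene, on 14 expression arrays. All cells, the untreated ones included, had been deprived of hormone for 48 h in medium with charcoal-dextran-treated serum. The untreated group was then collected without dexamethasone (0 h, 4 arrays, replicates 1 to 4). The treated groups received the glucocorticoid dexamethasone at 10 nM, dissolved in ethanol, for 8 h (5 arrays, replicates 1 to 5) or 24 h (5 arrays, replicates 1 to 5). There were no untreated or ethanol-treated arrays at 8 h or 24 h, so the hormone and the added time in culture cannot be told apart. Values are log2 expression from the RMA method and rest on signal rather than counted molecules. The number of arrays limits precision, and probe sets of the same gene can differ. The labels do not say that replicates came from separate cultures, and p-values then measure only the scatter among these arrays, possibly technical scatter. In whole-cell RNA, fewer cells of a type and less RNA per cell cannot be told apart.

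Ribosome production starts with RNA polymerase I, which copies the ribosomal DNA repeats into a long precursor. Small nucleolar ribonucleoproteins (snoRNPs) guide methylation and pseudouridylation of that precursor, and separate sets of assembly factors then build the small and the large subunit from it. Growing cells, leukemia cells among them, spend much of their transcription on this pathway, and the transcription factor MYC is a well-known activator of its genes through the E-box sequence CACGTG.

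The measured factors were 5 of 6 polymerase I and ribosomal DNA (rDNA) transcription factors (POLR1B, POLR1C, TAF1D, NCL, DDX21), both nucleolar histone chaperones (NPM1, NPM3), 11 of 12 small subunit factors, 13 of 19 large subunit factors, 4 of 7 snoRNP proteins (FBL, GAR1, NHP2, NOLC1) and both stand-alone pseudouridine synthases (PUS1, PUS7). BOP1, PPAN, NOP56 and DKC1 had only probe sets annotated with several genes and were not used here, and no probe set named LYAR, NOB1, GNL3, EBNA1BP2, DDX18, SURF6 or NOP58. The 37 genes were covered by 53 probe sets, which were averaged per gene. Medians over all probe sets lay between 6.03 and 6.05 in untreated arrays, between 6.03 and 6.09 at 8 h and between 6.07 and 6.11 at 24 h. The label of the cells was checked against marker genes. All 8 measured B-lineage markers lay above the median of all values in untreated cells, led by VPREB1, part of the surrogate light chain of B-cell precursors, at a mean of 12.88. DNTT, a B-cell precursor polymerase, was the lowest of them, at 6.29 in untreated cells and 4.48 at 24 h. Of T and NK cell markers 1 of 7 lay above that median (NKG7), of monocyte and granulocyte markers 0 of 7, and of erythroid and platelet markers 0 of 4. The mean of each of these last 3 lists stayed within 4.62 to 4.87, 3.93 to 4.19 and 4.31 to 4.59 over all arrays. Differences between the 3′ and 5′ control probe sets, a sign of RNA quality, overlapped between the groups, at 0.45 to 0.95, 0.51 to 0.96 and 0.54 to 1.02 (log2) for GAPDH in untreated, 8 h and 24 h arrays. The sample descriptions also hold a date, with a letter A or B for 1 of the dates. They do not say what was done on these dates. Arrays with the same date and letter are called a run here, which gave 5 runs. Runs 1 and 2 share a date (day 1), and runs 3, 4 and 5 each have another one (days 2, 3 and 4). The numbers name the days and give no order. Run 5 had no untreated array, and the replicate 5 treated arrays belonged to run 4 with untreated replicate 4.

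Most ribosome biogenesis factors were lower after 8 h of dexamethasone, and nearly all were lower after 24 h. At 8 h, 29 of the 37 measured factors fell and 1 rose at an adjusted p below 0.05 (limma, Benjamini-Hochberg over all genes), where 11.0% of all genes fell and 8.69% rose. Their median log2 fold change was -0.42, beside -0.02 for all genes. At 24 h, 35 fell and 1 rose, where 20.9% of all genes fell and 19.5% rose, with a median of -0.84 beside -0.02. Between 8 h and 24 h 33 of 37 fell and 0 rose, where 13.7% and 14.6% of all genes did, with a median of -0.40 beside 0.00. No factor was higher at 24 h than at 8 h at an unadjusted p below 0.05 either, and the count stayed at 0 with trended and robust eBayes and with the run as a block. Both treated groups were compared with the same 4 untreated arrays, so the comparisons are not independent.

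The same was seen without a model. The 8 h arrays all lay below the untreated arrays for 28 of the 37 factors, which 10.4% of all genes did, and above them for 0 (7.86% of all genes). At 24 h this held for 35 factors below (18.1% of all genes) and 0 above (17.2%), and between 8 h and 24 h for 27 below (10.9%) and 0 above (11.5%). Within runs, 33 factors were lower at 8 h in each of the 4 runs that have an untreated array, 35 were lower at 24 h in each of these, and 34 were lower at 24 h than at 8 h in each of the 5 runs. The share of all genes that were lower in every run was not computed. In single runs, 5860 to 6641 of the 11963 genes were lower at 8 h and 6197 to 6310 at 24 h. From 8 h to 24 h, 5261 to 6278 of all genes were lower in single runs. By the 3 tests together, 27 factors were lower in every comparison. The share of all genes with that pattern was not computed, but it cannot exceed the 11.0% that fell at 8 h. The 3 comparisons share arrays. For 6 the 8 h change did not pass but the later ones did (NPM3, GRWD1, NOC3L, FBL, GAR1, PUS1), and for 2 the step from 8 h to 24 h did not pass (UTP14A, NIP7). TAF1D rose and POLR1B did not pass in any comparison.

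**Figure D1:**
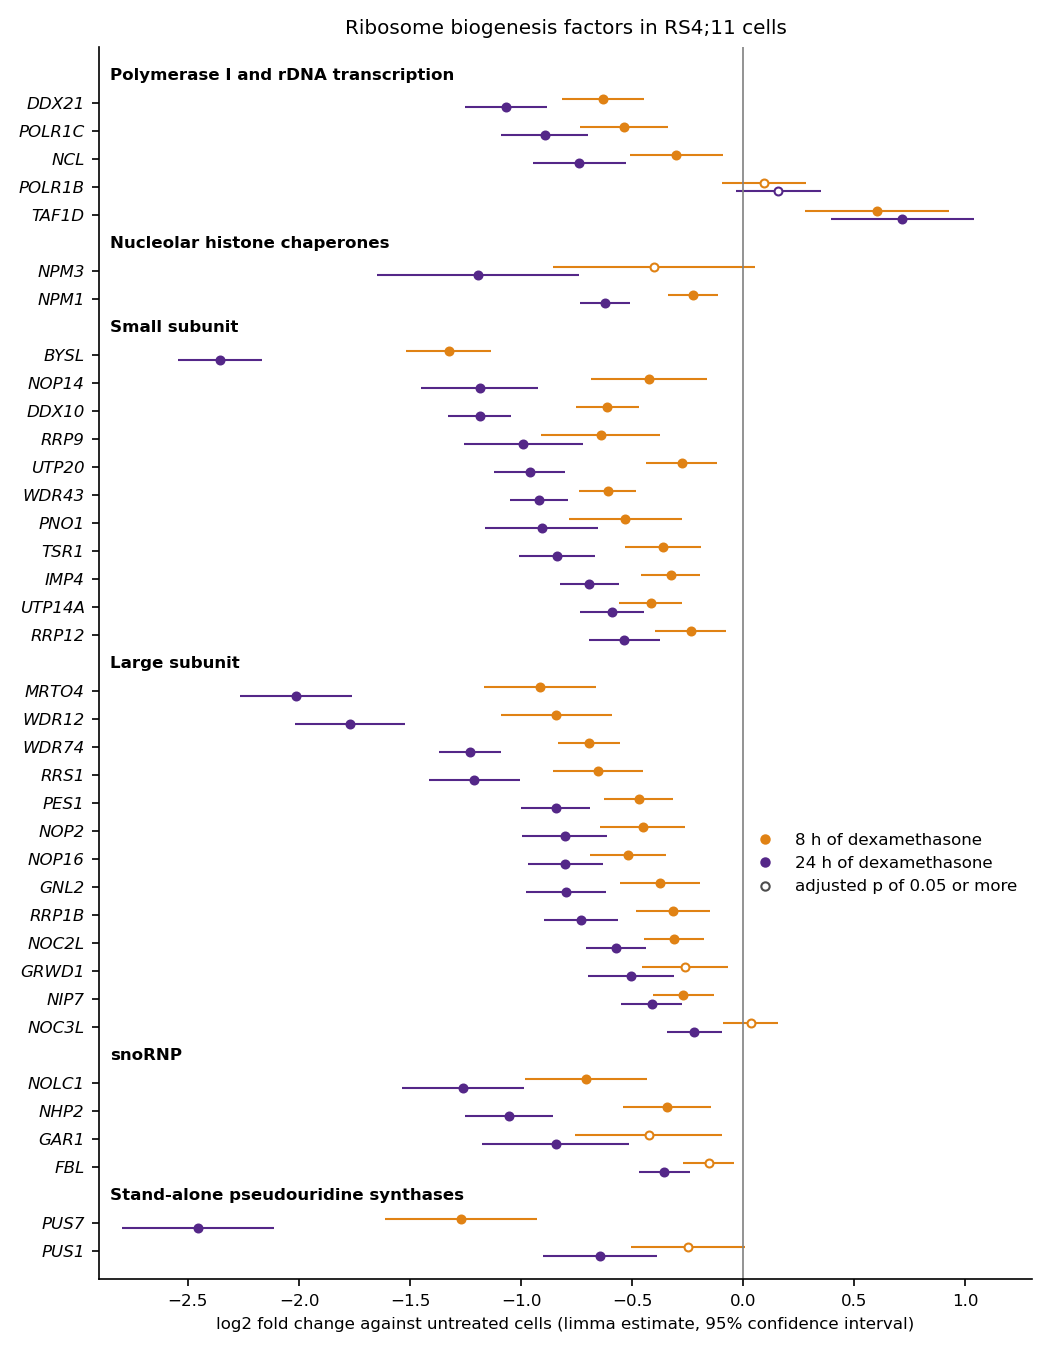
Each point is the limma estimate of the log2 fold change against untreated cells for 1 of the 37 measured factors at 8 h (orange) or 24 h (purple), with its 95% confidence interval; open points did not pass an adjusted p of 0.05. All but TAF1D and POLR1B lie left of 0 at 24 h, and PUS7, BYSL, MRTO4 and WDR12 lie farthest left.

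The polymerase I, small subunit, large subunit and snoRNP classes all had medians below 0 in each comparison. At 8 h the median log2 fold change was -0.30 for the 5 polymerase I and rDNA factors, -0.42 for the 11 small subunit factors, -0.45 for the 13 large subunit factors and -0.38 for the 4 snoRNP proteins. At 24 h these medians were -0.74, -0.92, -0.80 and -0.95, and between 8 h and 24 h they were -0.36, -0.38, -0.37 and -0.49, in the same order. Within single runs the 24 h medians ranged from -0.79 to -0.67 for polymerase I, from -1.07 to -0.74 for the small subunit, from -0.97 to -0.73 for the large subunit and from -1.12 to -0.67 for snoRNP proteins. These ranges overlapped, but the classes share the arrays of a run. At 8 h the polymerase I median fell less than both subunit medians in each run. These ranged from -0.37 to -0.21, from -0.54 to -0.36 and from -0.57 to -0.33 for polymerase I, small and large subunit. At 24 h the order of polymerase I and small subunit changed between runs (-0.78 and -0.74 in run 1, -0.67 and -1.02 in run 3). From 8 h to 24 h the snoRNP median was below that of polymerase I in each run. These differences were not tested. Class means differed more, since TAF1D and POLR1B of the polymerase I class did not fall. At 24 h the means were -0.37 for polymerase I, -1.01 for the small subunit, -0.92 for the large subunit and -0.88 for snoRNP proteins. At 8 h they were -0.15, -0.52, -0.47 and -0.41, in the same order. For the snoRNP class the 8 h medians ranged from -0.55 to -0.15, with the smaller falls in runs 1 and 2. By count, 3 of 5 polymerase I factors, 11 of 11 small subunit, 11 of 13 large subunit and 2 of 4 snoRNP factors fell at 8 h, and 3 of 5, 11 of 11, 13 of 13 and 4 of 4 fell at 24 h.

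**Figure D2:**
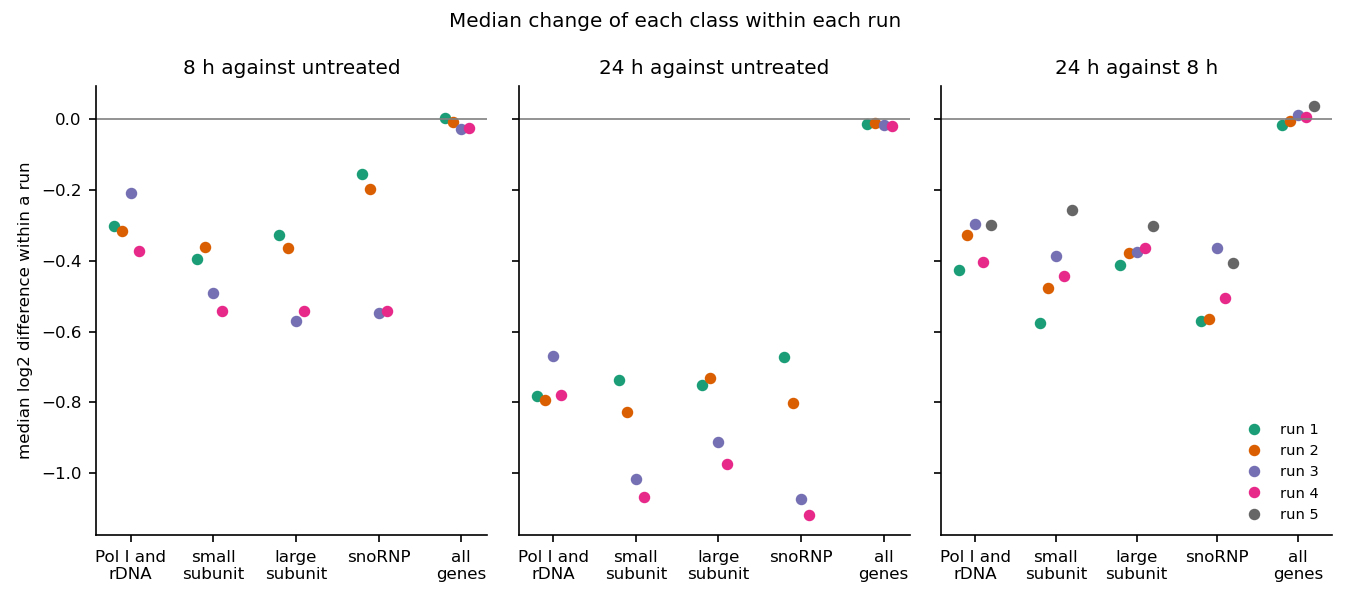
Each point is the median over a class of the log2 difference between 2 arrays of the same run, for polymerase I and rDNA (5 genes), small subunit (11), large subunit (13), snoRNP (4) and all 11963 genes. Every class median lies below 0 in every run, while the medians of all genes lie between -0.03 and 0.04.

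The start regions of these genes are shown because many of the factors share a sequence there. Of the 37 measured factors, 32 had a window in the RefSeq promoter table (GRCh38.p14), which covers 250 bases before and 50 bases from the transcription start, and RRP1B, NOLC1, RRS1, RRP12 and PUS1 had none. The E-box CACGTG, which reads the same on both strands, stood in the window of 17 of these 32 genes (53.1%), compared with 8.77% of all 27305 genes in the table. It lay in the first 50 bases from the start in 13 of the 32 (40.6%), where 1.12% of all genes hold one, and before the start in 4 of 32 (12.5%), where 7.73% do. These counts do not split the 17 genes, since IMP4 had an E-box in each part. The E-box of RRP9 spanned the start and was counted in neither. The windows below have the E-box in capitals and were picked from the 17 genes that hold one. BYSL, PUS7 and MRTO4 had large falls, and DDX21, WDR43 and FBL are of the polymerase I, small subunit and snoRNP classes. NOC3L was the one large subunit factor with a positive estimate at 8 h. WDR12 and WDR74 also had large falls (log2 -1.77 and -1.23 at 24 h), and their windows held no E-box.
BYSL: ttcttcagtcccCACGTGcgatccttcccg
PUS7: gtcgctgcgccgCACGTGtgcgagcccggc
MRTO4: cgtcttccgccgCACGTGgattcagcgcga
DDX21: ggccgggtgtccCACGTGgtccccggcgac
WDR43: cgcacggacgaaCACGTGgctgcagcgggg
FBL: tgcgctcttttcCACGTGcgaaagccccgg
NOC3L: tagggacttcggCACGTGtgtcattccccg

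On GRCh38.p14 these stretches lie at chr6:41921515-41921544 (plus strand, BYSL), chr7:105522226-105522255 (minus, PUS7), chr1:19251807-19251836 (plus, MRTO4), chr10:68956604-68956633 (plus, DDX21), chr2:28894658-28894687 (plus, WDR43), chr19:39846356-39846385 (minus, FBL) and chr10:94362903-94362932 (minus, NOC3L). Counted from the annotated start as base 1, the E-box began at base 29 of BYSL and PUS7, base 15 of MRTO4, base 4 of WDR43, base 7 of FBL and base 20 of NOC3L, all within the transcribed 5′ end, and 31 bases before the start of DDX21. The 13 E-boxes within the first 50 bases began between bases 4 and 36, with a median of 16. Factors with and without an E-box in the window did not stand apart in size: median log2 fold changes were -0.45 and -0.34 at 8 h and -0.91 and -0.80 at 24 h for 17 and 15 genes, given here as a description with no test. In 104 other genes of ribosome production with a window, listed further on, 19.2% held an E-box, and 8.65% held one in the first 50 bases. The ETS core CCGGAAG, searched on both strands, stood in 14 of the 32 windows (43.8%, all before the start) compared with 12.2% of all genes, and in 40.4% of the 104 other pathway genes. The TATA sequence TATAAA, searched the same way, stood in 2.63% of the 38 windows of these 32 genes compared with 11.5% of all windows, and the full palindrome bound by glucocorticoid receptor stood in 0 of them and in 1 gene of the whole table. A match of letters is a description of the sequence and does not show that a protein binds there. No motif searched contains another.

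Among factors of polymerase I and rDNA transcription, DDX21, POLR1C and NCL fell, POLR1B did not pass, and TAF1D rose. DDX21, an RNA helicase that acts in polymerase I transcription and in pre-RNA processing, stood at 11.03, 11.06, 11.15 and 11.39 in the untreated arrays, at 10.72, 10.66, 10.37, 10.44 and 10.44 after 8 h and at 10.15, 10.14, 10.02, 10.10 and 10.03 after 24 h. The 3 groups did not overlap, and the untreated array of run 4 was the highest. The fitted log2 fold change was -0.63 ± 0.09 (SE) at 8 h (adjusted p = 6.37e-05) and -1.07 ± 0.09 at 24 h (adjusted p = 4.27e-08). POLR1C, a subunit that polymerases I and III share, stood at 8.42, 8.56, 8.31 and 8.47 in the untreated arrays, at 8.11, 8.04, 7.67, 7.78 and 7.91 after 8 h and at 7.63, 7.71, 7.37, 7.48 and 7.51 after 24 h. All treated arrays lay below all untreated ones, and the 24 h array of replicate 2 lay just above the lowest 8 h array. It fell by 0.54 (log2) at 8 h (adjusted p = 0.000537) and by 0.89 at 24 h (adjusted p = 7.45e-07). NCL, nucleolin, an abundant nucleolar RNA-binding protein, stood at 12.76, 12.66, 12.86 and 12.98 in the untreated arrays, at 12.34, 12.34, 12.65, 12.63 and 12.60 after 8 h and at 11.92, 11.87, 12.19, 12.21 and 12.20 after 24 h. The untreated arrays were the highest and the 24 h arrays the lowest, but at 8 h the smallest gap to an untreated array was narrow. Its change was -0.30 ± 0.10 at 8 h (adjusted p = 0.0413) and -0.74 ± 0.10 at 24 h (adjusted p = 1.20e-05). The 8 h call for NCL did not hold in 5 of the fits that left out 1 array (8 h replicates 1 or 2, or untreated replicates 1, 3 or 4), where the adjusted p lay between 0.0643 and 0.128.

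TAF1D, a subunit of the promoter selectivity factor that brings polymerase I to rDNA, went the other way from the other called factors. TAF1D stood at 7.48, 7.52, 7.78 and 8.49 in the untreated arrays, at 8.37, 8.29, 8.44, 8.49 and 8.51 after 8 h and at 8.54, 8.35, 8.52, 8.66 and 8.60 after 24 h. Untreated replicate 4 lay among the treated arrays, while the other 3 untreated arrays lay below all of them. Its change was 0.60 ± 0.15 at 8 h (adjusted p = 0.00962), 0.72 ± 0.15 at 24 h (adjusted p = 0.00108) and 0.11 ± 0.14 between the times (adjusted p = 0.657). In runs 1, 2 and 3 the 8 h array was higher than the untreated one by 0.89, 0.76 and 0.66 (log2), and in run 4 by 0.02. Within days 2 to 4, which hold that array, the 8 h change was 0.35 ± 0.16 and did not pass (adjusted p = 0.165). POLR1B, the second-largest subunit of polymerase I, stood at 7.46, 7.36, 7.43 and 7.45 in the untreated arrays, at 7.23, 7.45, 7.69, 7.61 and 7.61 after 8 h and at 7.55, 7.52, 7.76, 7.42 and 7.67 after 24 h. The groups overlapped, and the 8 h array of replicate 1 was the lowest of all 14. Its changes of 0.09 ± 0.09 and 0.16 ± 0.09 did not pass the test (adjusted p = 0.574 and 0.188). The 95% interval of the 24 h change ran 0.19 to either side of the estimate. POLR1B rests on 1 probe set, whose design name marks probes that can match other sequences.

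**Figure D3:**
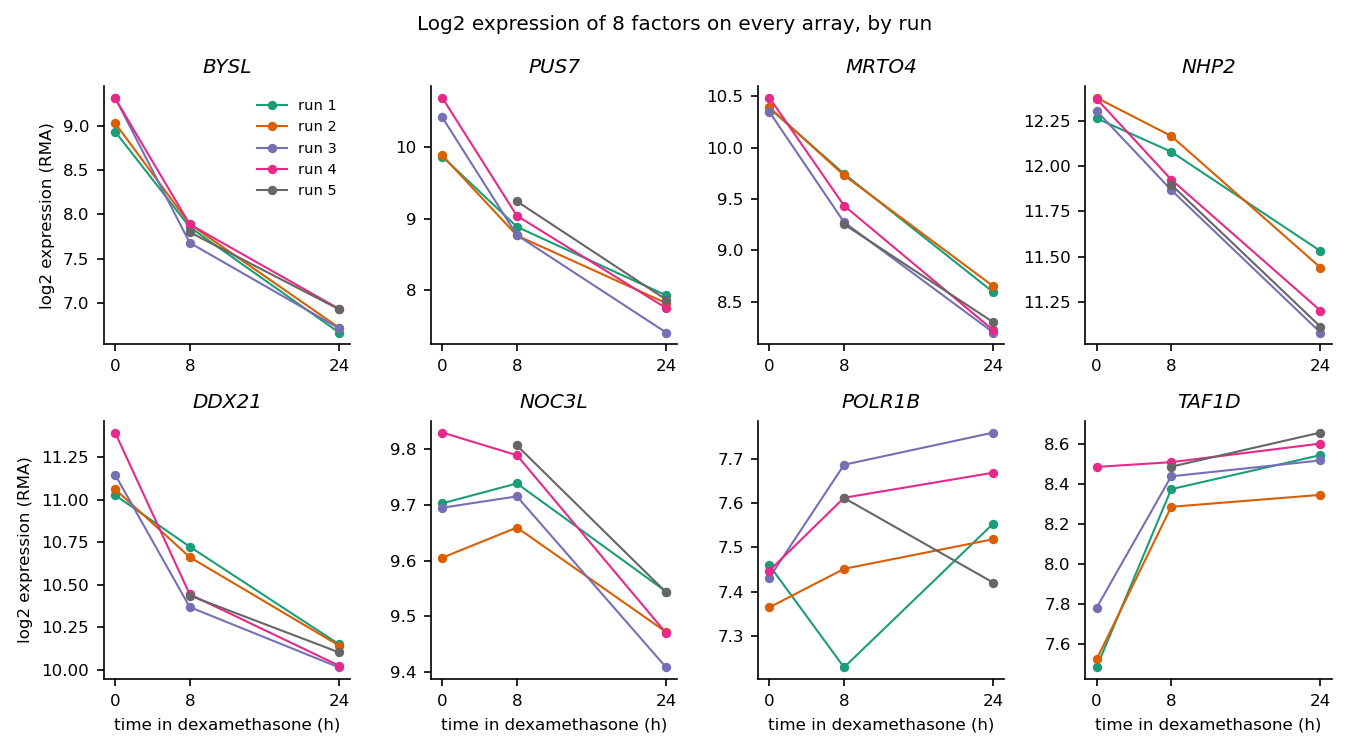
Each panel shows log2 expression (RMA) of 1 factor on all 14 arrays against hours in dexamethasone, with the arrays of a run joined and coloured alike; the vertical axes differ between panels and do not start at 0. BYSL, PUS7, MRTO4, NHP2 and DDX21 fall in every run at both steps, NOC3L falls after 8 h, POLR1B runs both ways, and the run 4 line of TAF1D starts at 8.49 and hardly moves.

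Both nucleolar histone chaperones were lower at 24 h. NPM1, nucleophosmin, a multifunctional nucleolar chaperone with a role in ribosome export, stood at 12.74, 12.72, 12.65 and 12.78 in the untreated arrays, at 12.49, 12.54, 12.40, 12.50 and 12.55 after 8 h and at 12.13, 12.15, 12.05, 12.09 and 12.09 after 24 h. The 3 groups did not overlap, and the arrays within each group differed little. The change was -0.23 ± 0.05 at 8 h (adjusted p = 0.00536) and -0.62 ± 0.05 at 24 h (adjusted p = 6.36e-08). Its 3 probe sets fell by different amounts at 24 h, by 0.22, 0.55 and 1.10 (log2), and the one with the smallest fall did not pass at 8 h (-0.09, adjusted p = 0.285). NPM1 has many pseudogene copies that its probes may not tell apart. NPM3, a relative of NPM1 that is also nucleolar, stood at 8.99, 9.03, 8.46 and 8.56 in the untreated arrays, at 8.69, 8.69, 7.85, 8.17 and 8.38 after 8 h and at 7.98, 8.08, 7.16, 7.29 and 7.30 after 24 h. Untreated and 8 h arrays overlapped, and in all groups the arrays of runs 1 and 2 were the highest. NPM3 changed by -0.40 ± 0.21 at 8 h, which did not pass (adjusted p = 0.234), and by -1.20 ± 0.21 at 24 h (adjusted p = 0.000233). With the run as a block the 8 h change was -0.34 ± 0.08 and passed (adjusted p = 0.00632).

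All 11 measured small subunit factors fell at both times. BYSL, bystin, a factor that stays with the small subunit precursor until late maturation, had the largest fall of the class and stood at 8.94, 9.03, 9.32 and 9.31 in the untreated arrays, at 7.86, 7.89, 7.68, 7.80 and 7.89 after 8 h and at 6.67, 6.72, 6.71, 6.93 and 6.93 after 24 h. Each group lay clear of the others by more than the spread of arrays within any of them. BYSL was 2.51-fold lower at 8 h (log2 -1.33 ± 0.09, adjusted p = 2.46e-08) and 5.12-fold lower at 24 h (log2 -2.36 ± 0.09, adjusted p = 4.97e-12). Its E-box stands at the transcribed start shown above. WDR43, a subunit of the UTP-A complex that binds nascent pre-rRNA, stood at 9.76, 9.77, 9.85 and 9.96 in the untreated arrays, at 9.28, 9.16, 9.20, 9.24 and 9.25 after 8 h and at 9.03, 8.84, 8.83, 8.99 and 8.89 after 24 h. The 3 groups did not overlap, and the larger step came before 8 h. Its change was -0.61 ± 0.06 at 8 h (adjusted p = 2.27e-06) and -0.92 ± 0.06 at 24 h (adjusted p = 3.79e-09). DDX10, an RNA helicase of early small subunit assembly, stood at 9.43, 9.45, 9.52 and 9.66 in the untreated arrays, at 8.97, 8.96, 8.73, 8.93 and 8.92 after 8 h and at 8.38, 8.40, 8.32, 8.33 and 8.23 after 24 h. Again the groups did not overlap, and 8 h replicate 3 lay below the other 8 h arrays. DDX10 fell by 0.61 (log2) at 8 h and by 1.19 at 24 h (adjusted p = 5.44e-06 and 5.50e-10). UTP20, a large scaffold protein of the small subunit processome, stood at 9.01, 9.11, 9.09 and 9.22 in the untreated arrays, at 8.95, 8.91, 8.74, 8.75 and 8.81 after 8 h and at 8.29, 8.28, 7.99, 8.12 and 8.06 after 24 h. The 3 groups did not overlap, and most of the fall came after 8 h. The change was -0.28 ± 0.08 at 8 h (adjusted p = 0.0153) and -0.68 ± 0.07 from 8 h to 24 h (adjusted p = 2.28e-06). The 8 h call for UTP20 did not hold without untreated replicate 4 (adjusted p = 0.0537), without run 5 (0.0508) or within day 1 (0.253).

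The other 7 small subunit factors had smaller falls at 8 h than BYSL. NOP14, a scaffold of the small subunit processome, changed by -0.42 ± 0.12 at 8 h (adjusted p = 0.0226) and by -1.19 ± 0.12 at 24 h (adjusted p = 7.51e-07). Its 8 h call did not hold without 8 h replicate 1 or without untreated replicates 3 or 4 (adjusted p from 0.0541 to 0.0847). RRP9, a protein of the U3 snoRNP, fell from a mean of 6.63 ± 0.15 (SD, n = 4) to 5.99 ± 0.23 (n = 5) at 8 h (adjusted p = 0.00146) and 5.64 ± 0.22 at 24 h (adjusted p = 7.11e-06). Its step from 8 h to 24 h passed (adjusted p = 0.0377) but did not with a run block (adjusted p = 0.0525). PNO1, which binds the precursor until the last cleavage of 18S RNA, fell by 0.53 (log2) at 8 h (adjusted p = 0.00434) and by 0.91 at 24 h (adjusted p = 1.04e-05). IMP4, which helps U3 pair with the precursor, had the tightest untreated group of these, at 9.74 ± 0.02, and stood at 9.41 ± 0.11 at 8 h and 9.04 ± 0.07 at 24 h. UTP14A, which activates the helicase DHX37, made most of its change before 8 h (-0.42 ± 0.07, adjusted p = 0.000276), and its step from 8 h to 24 h of -0.17 ± 0.06 did not pass (adjusted p = 0.0503). With the run as a block that step passed (adjusted p = 0.0277).

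TSR1 and RRP12 depended on the probe set read. TSR1, a GTPase-like factor of late small subunit maturation, fell by 0.36 (log2) at 8 h (adjusted p = 0.00398) and by 0.84 at 24 h (adjusted p = 2.95e-07) as the mean of 3 probe sets. At 24 h 2 of them changed by -1.41 and -1.42, while the other, whose design name marks probes that can match other sequences, was higher by 0.31 (adjusted p = 0.0179). RRP12, which takes part in export of both subunits, changed by -0.24 ± 0.08 at 8 h (adjusted p = 0.0376) and -0.54 ± 0.08 at 24 h (adjusted p = 2.39e-05). Of its 3 probe sets only 1 passed, with -0.57 at 8 h and -1.25 at 24 h, and the others changed by -0.19 and -0.16 at 24 h (adjusted p = 0.297 and 0.178). The 8 h call for RRP12 did not hold in 6 of the fits that left out 1 array (untreated replicates 1, 2 or 3, or 8 h replicates 3, 4 or 5; adjusted p from 0.0526 to 0.109).

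All 13 measured large subunit factors fell by 24 h. MRTO4, a nucleolar relative of the ribosomal stalk protein P0, stood at 10.39, 10.39, 10.35 and 10.49 in the untreated arrays, at 9.75, 9.73, 9.27, 9.25 and 9.44 after 8 h and at 8.59, 8.65, 8.20, 8.30 and 8.22 after 24 h. The groups did not overlap, and at both treated times the arrays of runs 1 and 2 were the highest. MRTO4 was 1.89-fold lower at 8 h (log2 -0.92 ± 0.12, adjusted p = 3.39e-05) and 4.03-fold lower at 24 h (log2 -2.01 ± 0.12, adjusted p = 9.76e-10). WDR12, which with PES1 and BOP1 forms the PeBoW complex of 60S maturation, stood at 9.92, 9.93, 9.81 and 9.99 in the untreated arrays, at 9.31, 9.32, 8.75, 8.91 and 9.05 after 8 h and at 8.27, 8.35, 7.86, 8.10 and 8.13 after 24 h. Untreated arrays lay close together and above the rest, and the 8 h arrays were spread more widely. WDR12 was 3.41-fold lower at 24 h (log2 -1.77 ± 0.12, adjusted p = 3.57e-09) after a change of -0.84 ± 0.12 at 8 h (adjusted p = 6.90e-05). PES1 changed by -0.47 ± 0.07 and -0.85 ± 0.07 (adjusted p = 0.000181 and 8.09e-08), and BOP1 was not measured here. WDR74, a factor of the nucleolar large subunit precursor, stood at 8.96, 8.84, 8.98 and 9.02 in the untreated arrays, at 8.28, 8.29, 8.20, 8.21 and 8.30 after 8 h and at 7.84, 7.76, 7.60, 7.81 and 7.59 after 24 h. Its groups did not overlap and its 8 h arrays lay close together. The change was -0.70 ± 0.07 at 8 h (adjusted p = 1.11e-06) and -1.23 ± 0.07 at 24 h (adjusted p = 3.03e-10), and its 2 probe sets fell alike.

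RRS1, which brings the 5S ribonucleoprotein into the large subunit, stood at a mean of 10.70 ± 0.14 (SD, n = 4), 10.05 ± 0.18 at 8 h and 9.49 ± 0.13 at 24 h (n = 5 each). Its fall of 1.21 (log2) at 24 h (adjusted p = 3.19e-08) was close to that of WDR74. NOP2, a methyltransferase of 28S RNA, GNL2, a GTPase needed for nuclear export of the large subunit, NOP16 and RRP1B changed by -0.80, -0.80, -0.80 and -0.73 at 24 h. For NOP16, a nucleolar protein of 60S assembly, 2 probe sets changed by 0.02 and 0.00 and did not pass, while the others changed by -1.62 and -1.61. NOC2L, NIP7 and GRWD1 had smaller changes, of -0.57 ± 0.06, -0.41 ± 0.06 and -0.51 ± 0.09 at 24 h. GRWD1, a histone-binding WD-repeat protein of 60S assembly, did not pass at 8 h (-0.26 ± 0.09, adjusted p = 0.0526). NIP7, needed for large subunit RNA processing, had no passed step after 8 h (-0.14 ± 0.06, adjusted p = 0.0955), though it passed with a run block (adjusted p = 0.0467). NOC3L, which forms a nuclear export complex with NOC2L in yeast, was the one large subunit factor with a positive estimate at 8 h. It stood at 9.70, 9.61, 9.69 and 9.83 in the untreated arrays, at 9.74, 9.66, 9.72, 9.81 and 9.79 after 8 h and at 9.54, 9.47, 9.41, 9.54 and 9.47 after 24 h. Untreated and 8 h arrays overlapped, and all 24 h arrays lay below both. NOC3L changed by 0.03 ± 0.06 at 8 h (adjusted p = 0.786) and by -0.25 ± 0.06 from 8 h to 24 h (adjusted p = 0.00219), while NOC2L had already changed by -0.31 ± 0.06 at 8 h (adjusted p = 0.00211).

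Of the snoRNP proteins, all 4 measured ones were lower at 24 h, by different amounts. NHP2, part of the box H/ACA core that guides pseudouridylation, stood at 12.26, 12.38, 12.31 and 12.37 in the untreated arrays, at 12.08, 12.17, 11.87, 11.90 and 11.93 after 8 h and at 11.53, 11.44, 11.08, 11.11 and 11.20 after 24 h. The 3 groups did not overlap, and at both treated times the arrays of runs 1 and 2 were the highest. Its change was -0.34 ± 0.09 at 8 h (adjusted p = 0.0155) and -1.06 ± 0.09 at 24 h (adjusted p = 1.16e-07). GAR1, from the same core, had overlapping untreated and 8 h arrays, with 8 h replicates 1 and 2 at 10.24 and 10.12 and the other 8 h arrays between 9.44 and 9.59. Its 8 h change of -0.43 ± 0.16 did not pass (adjusted p = 0.0695), did so with a run block (-0.38 ± 0.09, adjusted p = 0.00910), and was followed by -0.84 ± 0.16 at 24 h (adjusted p = 0.000310). NOLC1, a chaperone of snoRNPs that links the nucleolus and Cajal bodies, stood at 9.03, 9.03, 9.50 and 9.80 in the untreated arrays, at 8.61, 8.56, 8.60, 8.61 and 8.77 after 8 h and at 8.01, 7.91, 8.13, 8.13 and 8.19 after 24 h. Its untreated arrays were spread widely, with replicates 3 and 4 highest, and still lay above all treated arrays. NOLC1 changed by -0.71 ± 0.13 at 8 h (adjusted p = 0.000807) and by -1.26 ± 0.13 at 24 h (adjusted p = 6.09e-07), and its 3 probe sets fell alike. FBL, fibrillarin, the methyltransferase of box C/D snoRNPs, stood at 11.64, 11.68, 11.65 and 11.64 in the untreated arrays, at 11.52, 11.50, 11.44, 11.49 and 11.53 after 8 h and at 11.30, 11.42, 11.22, 11.20 and 11.33 after 24 h. The groups did not overlap, but the gaps were small. The change of FBL was -0.16 ± 0.05 at 8 h, just short of the threshold (adjusted p = 0.0554, 0.0477 with the run as a block), and -0.36 ± 0.05 at 24 h (adjusted p = 4.76e-05). The other box C/D core proteins, NOP56 and NOP58, and the pseudouridine synthase DKC1 were not measured here.

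The stand-alone pseudouridine synthases modify RNA without a guide. PUS7 had the largest 24 h fall of the 37 measured factors and stood at 9.87, 9.88, 10.41 and 10.69 in the untreated arrays, at 8.89, 8.76, 8.77, 9.24 and 9.04 after 8 h and at 7.93, 7.82, 7.41, 7.87 and 7.75 after 24 h. The 3 groups lay far apart, and the untreated arrays differed most among themselves, with replicates 3 and 4 above replicates 1 and 2. PUS7 was 2.41-fold lower at 8 h (log2 -1.27 ± 0.16, adjusted p = 2.57e-05) and 5.49-fold lower at 24 h (log2 -2.46 ± 0.16, adjusted p = 3.12e-09). PUS1, an enzyme of transfer RNA and other RNAs, stood at 8.45, 8.56, 8.80 and 8.92 in the untreated arrays, at 8.25, 8.15, 8.55, 8.58 and 8.62 after 8 h and at 7.95, 7.79, 8.07, 8.14 and 8.23 after 24 h. Untreated and 8 h arrays overlapped, with the arrays of runs 1 and 2 lowest in every group. Its change was -0.25 ± 0.12 at 8 h (adjusted p = 0.185), -0.28 ± 0.05 with a run block (adjusted p = 0.00210), and -0.64 ± 0.12 at 24 h (adjusted p = 0.000356).

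The size of the 8 h fall differed between the runs of day 1 and those of days 2 to 4 for some factors. Of the 37, 30 had the lower log2 fold change at 8 h in days 2 to 4 (TAF1D among them, with a smaller rise), with median log2 fold changes of -0.34 in day 1 and -0.52 in days 2 to 4. The share of all genes with the lower fold change in days 2 to 4 was not computed for any comparison. An interaction term in limma passed for 8 factors at 8 h (DDX21, PNO1, NOP2, MRTO4, RRS1, GRWD1, GAR1, NOLC1), of 600 genes in all, and for 2 at 24 h (RRS1, GRWD1), of 153. It passed for 0 factors from 8 h to 24 h, of 10 genes, where 4 had an unadjusted p below 0.05. RRS1 changed by -0.35 at 8 h in day 1 and by -0.90 in days 2 to 4, a difference of 0.55 ± 0.09 (adjusted p = 0.00624). GAR1 changed by -0.10 and -0.62 in these sets of runs (adjusted p = 0.0130 for the difference), and GRWD1 by 0.01 and -0.52 (adjusted p = 0.00929). At 24 h the medians were -0.78 in day 1 and -0.94 in days 2 to 4, and 31 of the 37 were lower in days 2 to 4. From 8 h to 24 h this held for 17 of 37, with medians of -0.45 and -0.37. The day sets hold 2 and 2 untreated arrays and 2 and 3 arrays of each treated time, and the counts changed by more than 1.5 times when single arrays were left out: 3 to 9 at 8 h, with 3 without untreated replicate 1 or 4, and 0 to 3 at 24 h. The 3′ minus 5′ difference of the control probe sets also split by these days, at 0.45 to 0.61 in runs 1 and 2 and 0.79 to 1.02 in runs 3 to 5 for GAPDH and at 1.06 to 1.55 and 2.03 to 2.75 for ACTB (log2), with no overlap. Its part in the day difference was not tested.

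**Figure D4:**
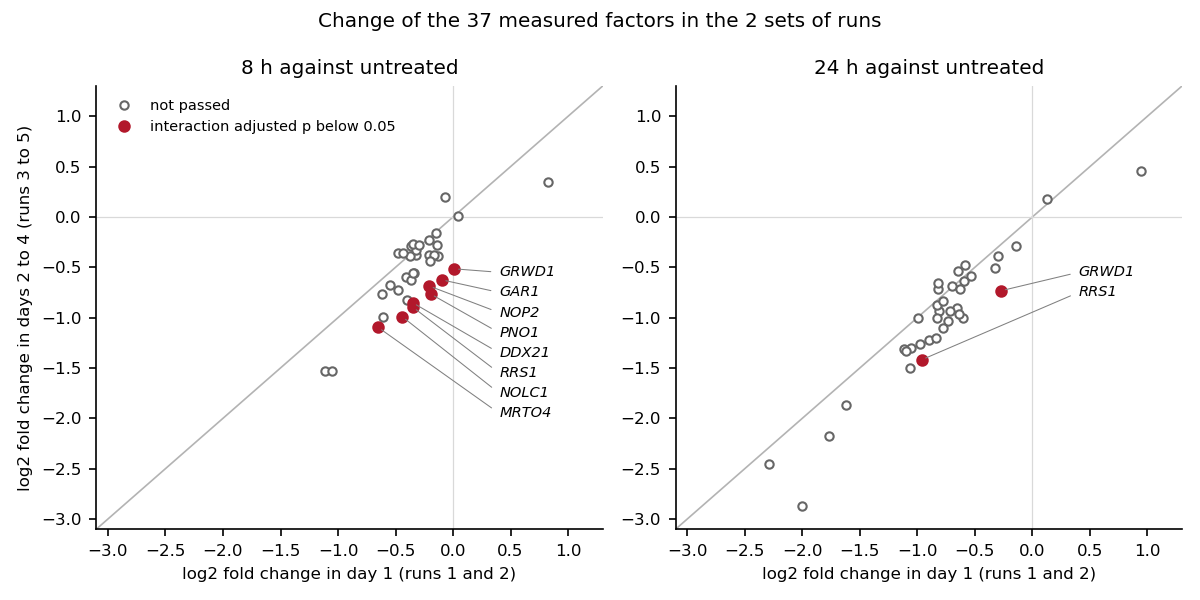
Each point is 1 of the 37 measured factors, with its log2 fold change in day 1 (runs 1 and 2) on the horizontal axis and in days 2 to 4 (runs 3 to 5) on the vertical axis; the diagonal marks equal change and filled points passed the interaction test. At 8 h 30 points and at 24 h 31 points lie below the diagonal.

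Other genes of ribosome production, taken from 5 lists that do not hold the 37 factors, fell in part. Of 143 listed genes 121 were measured. At 8 h 51 of them fell, 1 rose and 69 did not pass (median -0.23). At 24 h 84 fell, 2 rose and 35 did not pass (median -0.42), and from 8 h to 24 h 60 fell, 1 rose and 60 did not pass. The falls made up 42.1%, 69.4% and 49.6% of these genes, where 11.0%, 20.9% and 13.7% of all genes fell and 8.69%, 19.5% and 14.6% rose. By list, 5 of 15 polymerase I and rDNA genes fell at 8 h and 7 at 24 h, 18 and 27 of 35 small subunit genes, 18 and 27 of 37 large subunit genes, 4 and 10 of 14 snoRNP genes, and 6 and 13 of 20 genes of RNase MRP and the nuclear exosome. Their medians at 24 h were -0.28, -0.45, -0.36, -0.43 and -0.40.

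In the polymerase I list, both the subunit genes and the basal factors held members that fell at 24 h and members that did not pass. POLR1G, a polymerase I subunit, had the largest change of its list at 8 h (-1.13 ± 0.12, adjusted p = 4.87e-06), and its partner subunit POLR1E changed by -1.32 ± 0.10, adjusted p = 1.10e-08 at 24 h. NOL11, a factor of rDNA transcription and early processing, changed by -1.06 ± 0.06, adjusted p = 1.05e-09 at 24 h. For UBTF, the architectural factor of active rDNA, the 24 h change was -0.11 ± 0.12, adjusted p = 0.544, and for RRN3, the initiation factor TIF-IA, it was -0.29 ± 0.12, adjusted p = 0.0716. Neither passed. Of the promoter selectivity factor, TAF1A changed by -0.53 ± 0.09, adjusted p = 0.000107 and TBP, the TATA-binding protein, by -0.44 ± 0.07, adjusted p = 0.000131 at 24 h. TAF1B and TAF1C of the same list were also measured, but their values are not given here, so the whole factor is not described. The subunit POLR1D did not pass at 24 h (-0.10 ± 0.14, adjusted p = 0.658). UBTF, RRN3, TAF1A, TBP and POLR1D were named after their values were seen. BAZ2A, a subunit of the complex that silences rDNA repeats, rose by 24 h (0.23 ± 0.06, adjusted p = 0.00813).

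In the small subunit list RCL1, an endonuclease of pre-rRNA, changed by -1.28 ± 0.08, adjusted p = 3.27e-09 at 24 h and RRP7A by -1.07 ± 0.07, adjusted p = 3.20e-09. WDR3, a processome subunit, changed by -0.59 ± 0.09, adjusted p = 0.000245 at 8 h, and NAT10, the cytidine acetyltransferase of 18S RNA, by -0.65 ± 0.07, adjusted p = 2.58e-06 from 8 h to 24 h. RIOK3, a kinase found on cytoplasmic 40S precursors, was the one gene of the list that rose (0.49 ± 0.09, adjusted p = 0.000320 at 24 h). In the large subunit list MAK16 changed by -0.91 ± 0.05, adjusted p = 8.61e-10 and RBM28 by -1.05 ± 0.07, adjusted p = 1.81e-09 at 24 h. WDR18, part of the rixosome of large subunit maturation, changed by -0.59 ± 0.07, adjusted p = 2.02e-05 at 8 h, and RRP15 by -0.70 ± 0.07, adjusted p = 1.10e-06 from 8 h to 24 h. Of snoRNP assembly factors, NUFIP1 changed by -1.23 ± 0.07, adjusted p = 5.91e-10 and the ATPase RUVBL1 by -0.91 ± 0.09, adjusted p = 6.79e-07 at 24 h. PIH1D1, a subunit of the R2TP assembly complex, changed by -0.42 ± 0.08, adjusted p = 0.000889 at 8 h, and ZNHIT6, a box C/D assembly factor, by -0.28 ± 0.05, adjusted p = 0.000367 from 8 h to 24 h. POP7, an RNase MRP protein, changed by -1.33 ± 0.11, adjusted p = 6.81e-08 and the exosome subunit EXOSC2 by -0.96 ± 0.07, adjusted p = 2.46e-08 at 24 h. RPP40, also of RNase MRP, changed by -0.57 ± 0.10, adjusted p = 0.000568 and the exosome subunit EXOSC5 by -0.96 ± 0.17, adjusted p = 0.000684 at 8 h.

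**Figure D5:**
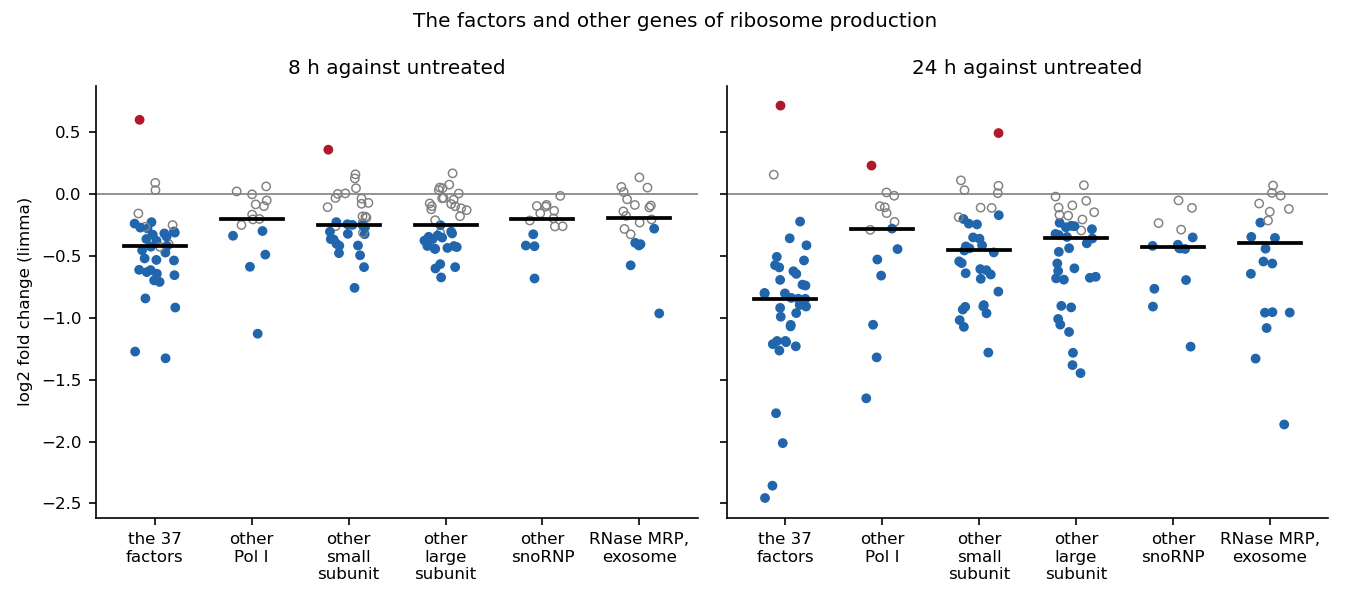
Each point is the log2 fold change (limma) of 1 gene at 8 h or 24 h against untreated cells, for the 37 factors and 5 lists of other genes of ribosome production; blue points fell and red points rose at an adjusted p below 0.05, grey open points are the rest, and the bars in black give medians. The median of the 37 factors lies at -0.42 and -0.84 and those of the other lists between -0.28 and -0.45 at 24 h.

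MYC, the activator of ribosome production genes named above, was lower at both times. It stood at 12.22, 12.26, 11.92 and 12.02 in the untreated arrays, at 11.15, 11.08, 10.77, 10.99 and 11.00 after 8 h and at 11.14, 11.12, 10.99, 11.32 and 11.17 after 24 h. All treated arrays lay below all untreated arrays, and the 8 h and 24 h arrays overlapped. Its change was -1.11 ± 0.09 at 8 h (adjusted p = 2.12e-07) and -0.96 ± 0.09 at 24 h (adjusted p = 2.40e-07), with a step of 0.15 ± 0.08 between the times that did not pass. Of the 37 factors, 33 were lower at 24 h than at 8 h (13.7% of all genes were), of which 27 had also fallen at 8 h. The part of MYC in the changes of the factors was not tested.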

How the data were processed

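RNA of RS4;11 cells was hybridized to 14 arrays. The authors ran RMA from affy (background correction, normalization, summary per probe set; its version is not given in the sources used here), left out 1 untreated array after quality control, and deposited the log2 values of 22277 probe sets. The labels name an Affymetrix protocol, whereas the methods name an Agilent array of the same design. The study's variance filter and mean per gene come after this step. Of the probe sets, 19070 were annotated with 1 gene and used, 1043 with several and 2164 with none, and symbols were updated through gene IDs.

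Probe sets were averaged per gene (11963 genes), and limma 3.58.1 in R 4.3.3 (lmFit and eBayes, all 14 arrays, no block) compared the groups, with Benjamini-Hochberg adjustment over all genes of a comparison and a threshold of 0.05. The fit was tested on simulated data. No variance filter was used, because it removes NOC3L, POLR1B and TAF1D, and it was run as an alternative. Groups and replicates came from the labels, and runs were read from the date and letter in the sample descriptions. Same-run arrays deviated together (residual correlation 0.299 to 0.537, above 0.1 in 13 of 13 pairs). Pairs by replicate number gave 0.218 to 0.537, also above 0.1 in 13 of 13 pairs. The check cannot tell these pairings apart, since most pairs belong to both. The run and the replicate number were each tried as a replicate block. Values of every array are given for up to 3 factors per class with the smallest adjusted p at 8 h and up to 2 in each other comparison, for any factor called against the majority and for those never called, and NOC3L was added after its values were seen. Of each other list, up to 2 genes per direction and comparison with the smallest adjusted p are named, and UBTF, RRN3, TAF1A, TBP and POLR1D were added after their values were seen. The factors, lists and tests were chosen with earlier results of these data known. Alternatives covered filters, probe set choice, normalization, blocks, array weights, thresholds, runs and single arrays.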

Additional observations from a re-analysis of the deposited data

Results flagged for a closer look

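In 4 of 111 groups of arrays (37 factors in 3 groups) 1 array stood apart from the rest by Dixon's criterion, which chance alone gives in about 1 of 20 groups. PNO1 had its highest untreated value in replicate 3 (8.78, log2) and UTP14A in untreated replicate 2 (7.21). DDX10 was lowest in 8 h replicate 3 (8.73), and NOLC1 was highest in 8 h replicate 5 (8.77). The calls for DDX10 and NOLC1 in the 3 comparisons did not change when any 1 array was left out. UTP14A gained a call from 8 h to 24 h without untreated replicate 2 (adjusted p = 0.0411, 0.0503 with all arrays). It did so too without 8 h replicate 1 or 24 h replicate 5. PNO1 lost the call for that step without 8 h replicates 1 or 2 or 24 h replicates 3 or 5, though not without untreated replicate 3.

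The 8 h effect in day 1 differed from that in days 2 to 4 for 8 factors by the interaction test. Day 1 minus days 2 to 4 was 0.50 for DDX21, 0.57 for PNO1, 0.48 for NOP2, 0.45 for MRTO4, 0.55 for RRS1, 0.53 for GRWD1, 0.53 for GAR1 and 0.55 for NOLC1 (log2), so each had the lower fold change in days 2 to 4. At 24 h it was 0.46 for RRS1 and 0.46 for GRWD1. The array weights that limma estimated were 0.487 and 0.479 for the 8 h arrays of day 1 and between 1.49 and 1.89 for those of days 2 to 4. The 3′ minus 5′ difference of the GAPDH control was 0.45 to 0.61 in the arrays of day 1 and 0.79 to 1.02 in those of days 2 to 4. The part of either in these differences was not tested.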

How the results depend on the processing

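The counts of factors that fell at 24 h stayed within 1.5 times of 35 under every alternative run, and no class median changed sign. With a fold of at least 1.5 required as well, 11 factors fell at 8 h and 8 from 8 h to 24 h. The share of all genes that passed this fold was not computed. The count of factors that rose was 0 at 8 h and 0 at 24 h with the variance filter, which removes TAF1D, 0 at 8 h within days 2 to 4, and 2 at 24 h with the probe set of highest mean or each probe set on its own, where TSR1 joined TAF1D. With the run as a replicate block 33, 35 and 34 factors fell at 8 h, at 24 h and between them, and the only calls it changed were those of FBL, GAR1, NPM3 and PUS1 at 8 h and NIP7, UTP14A and RRP9 between the times.

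The variance filter moved the polymerase I medians to -0.54, -0.89 and -0.44 in the 3 comparisons and the large subunit median from 8 h to 24 h to -0.42. It keeps probe sets with a wider interquartile range, and it removed POLR1B and TAF1D from the first class and NOC3L from the second. TAF1D was removed although its arrays ran from 7.48 to 8.66. Each probe set on its own gave -0.38 for polymerase I at 8 h, and within day 1 its 24 h median was -0.81. The small subunit median at 8 h was -0.53 with the filter on dim probe sets, -0.57 with the probe set of highest mean and -0.56 within days 2 to 4, and -0.51 to -0.39 with single arrays left out. From 8 h to 24 h it was -0.55 with the probe set of highest mean and -0.54 within day 1, and that of the large subunit was -0.42 and, within days 2 to 4, -0.32. The causes of these shifts were not tested.

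Factors with a different effect in the 2 sets of days numbered 3 to 9 at 8 h when single arrays were left out (3 to 5 without untreated replicates 1, 2 or 4 or 8 h replicates 1 or 2). At 24 h they numbered 0 to 3 without single arrays (0 without 24 h replicates 1, 2, 4 or 5 or untreated replicates 1 or 2), 0 without run 5, 8 with the filter on dim probe sets and 6 with trended and robust eBayes. Signs turned for TSR1 with the probe set of highest mean (0.27 at 8 h, 0.31 at 24 h, 0.039 between), GRWD1 at 8 h within day 1 (0.012), POLR1B at 8 h within day 1 (-0.072) and from 8 h to 24 h within days 2 to 4 (-0.021) or without 8 h replicate 1 (-0.0063, the lowest of a range up to 0.11 without single arrays), and NOC3L at 8 h without untreated replicate 2 (-0.00066, of a range up to 0.074). Of 37 factors, 20, 2 and 12 changed their call or sign in the 3 comparisons under at least 1 alternative. Within day 1, on fewer arrays, the 8 h falls of NHP2, NIP7, NOP2, NPM1, PNO1, RRP12, RRP1B, RRP9 and UTP20 did not pass. Their adjusted p in that limma fit lay between 0.059 (NPM1) and 0.301 (RRP12). GAR1, GRWD1, RRP9 and PNO1 lost the call from 8 h to 24 h without single arrays, PNO1 without 8 h replicates 1 or 2 or 24 h replicates 3 or 5. The number of arrays limits the fits on fewer arrays, while the turn of TSR1 followed the choice of probe set.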
